A study of Rattus norvegicus with 12 samples.

Results

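The genes described here are the assembly factors of the mitochondrial respiratory chain, nuclear genes whose products build complexes I to V without staying in the finished enzymes. They were taken by name from the deposited expression table of 17602 genes, and 40 of 43 named genes were found, 13 for complex I, 3 for complex II, 6 for complex III, 15 for complex IV and 3 for complex V. Sdhaf1, Surf1 and Sco2 were not analysed here. The table comes from bulk RNA sequencing of cardiac muscle of ZSF1 rats in a study of nicotinamide (NAM), a form of vitamin B3 from which cells make NAD+, in heart failure with preserved ejection fraction. There were 3 groups of 4 samples: lean controls, obese rats, and obese rats that drank 24 mM NAM in their water from 8 to 20 weeks of age. The labels give neither age nor sex for the lean and the untreated obese animals. They describe the obesity as diet-induced, under housing with free access to food, whereas obese ZSF1 rats are known as carriers of defective leptin receptor alleles on a hypertensive hybrid background, so obesity and genotype come together in this model. All groups share the ZSF1 strain, and no lean group with NAM is among the samples. Nothing in the labels says whether the samples came from separate animals, so the p-values measure the spread between these samples, which may be technical.

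Respiratory complexes are put together from nuclear and mitochondrially encoded subunits in ordered steps, and each step needs proteins that hold an intermediate, insert a cofactor such as flavin, heme, copper or an iron-sulfur cluster, or mark a module as ready for the next. Inherited loss of many of these factors causes mitochondrial disease, often with cardiomyopathy, because the heart depends on oxidative phosphorylation. Complex I passes electrons from NADH to ubiquinone, complex II does so from succinate, complex III hands them to cytochrome c, complex IV to oxygen, and complex V makes ATP.

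Levels are in TPM, the share of a library's transcripts that a gene holds, corrected for gene length. The share held by mitochondrially encoded genes was 66.2% to 70.4% in the lean samples, 74.6% to 75.5% in the obese samples and 69.9% to 73.8% in the NAM-treated samples, which lowers the TPM of all other genes where it is high. Each comparison is therefore given as deposited and on a rescaled scale, where a sample is divided by a median of ratios, taken over the 10526 kept genes against their geometric mean. The divisors were 1.03 to 1.09 for lean, 0.841 to 0.928 for obese and 0.994 to 1.17 for NAM-treated samples. Cardiac muscle was recognisable from 7 of 8 cardiomyocyte markers found in the table, whose summed TPM was 18194 to 20949 in lean, 13165 to 14897 in obese and 15973 to 18722 in NAM-treated samples. All 7 were called lower in obese than lean hearts and 6 of 7 higher with NAM on the deposited scale, beside 16.5% and 28.8% of all kept genes. Rescaled, none was called in these 2 comparisons (5 lower and 0 higher, then 1 lower and 3 higher, at an unadjusted p under 0.05), and Tnni3 was called lower in NAM-treated than lean hearts (-0.34, adjusted p = 0.0480). As deposited, the cardiomyocyte marker median was -0.50 in obese against lean, beside -0.32 for the assembly factors. With NAM against obese it was 0.43 beside 0.31. Erythroid markers summed to 1661 to 4018 TPM in obese samples, above the 721 to 1593 TPM in lean samples, and to 485 to 2300 TPM in NAM-treated samples. Smooth muscle and pericyte markers summed to 120 to 146 TPM in obese samples, below the 158 to 175 TPM in lean samples, and to 122 to 196 TPM with NAM. Endothelial sums overlapped between all groups. Summed markers of fibroblasts and macrophages spread more widely in obese than in other samples, for fibroblasts at 285 to 563 TPM beside 346 to 371 TPM in lean and 303 to 384 TPM in NAM-treated samples, and for macrophages, at 15.9 to 59.4 TPM beside 24.8 to 33.8 TPM in lean samples. After rescaling, all 5 fibroblast markers were higher in obese against lean and lower with NAM against obese, at an unadjusted p under 0.05 (medians 0.47 and -0.56). All 4 erythroid markers did likewise (medians 1.30 and -1.57). Of the 6 macrophage markers, 1 was higher and then 1 lower at that threshold. None of these markers was called after adjustment. The part of these marker levels in the results was not tested. In bulk tissue, fewer cells of a type and less RNA per cell cannot be told apart.

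All 40 assembly factors had at least 1 TPM in at least 4 samples and were tested. As deposited, their summed TPM was 968 to 1245 in lean, 731 to 900 in obese and 873 to 1022 in NAM-treated hearts. The lean and obese ranges did not overlap on that scale, but did overlap after rescaling. The level per gene, as the mean over the 12 samples, spanned from 1.62 TPM for Coa7 to 203 TPM for Cox14. Cox14, which binds newly made cytochrome oxidase subunit 1, was followed by the copper chaperone Cox17 at 107 TPM, the complex II factor Sdhaf4 at 75.8 TPM, the cytochrome b factor Uqcc2 at 59.8 TPM and Coa5 at 58.4 TPM. Next to Coa7 at the low end were Nubpl at 2.47 TPM and Coa4 at 2.70 TPM. Single genes made up much of each sum: Tmem70 gave 64.25% of the complex V factors, Sdhaf4 54.7% of the complex II factors, Uqcc2 48.07% of the complex III factors, Cox14 39.69% of the complex IV factors and Ecsit 17.6% of the complex I factors.

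In obese hearts 11 of the 40 assembly factors fell against lean hearts (limma on log2(TPM + 1), adjusted p under 0.05), which is 27.5% of them beside 16.5% of all kept genes, and none rose, beside 0.352%. At an unadjusted p under 0.05, 26 were lower and 0 higher. The fallen genes were Foxred1, Ndufaf6 and Ecsit for complex I, Lyrm7, Uqcc1 and Uqcc2 for complex III, Coa5, Cox10, Cox15 and Cox17 for complex IV, and Tmem70 for complex V. The estimate was negative for 38 of 40 genes, with a median log2 change of -0.32 beside -0.20 over all kept genes. After rescaling, the median was -0.09 beside 0.00, and Coa5 alone remained lower, 2.5% of the members beside 0.751% of kept genes. None was higher after rescaling, beside 0.589% of kept genes, and at an unadjusted p under 0.05 the counts were 5 lower and 0 higher. With TPM recomputed without the mitochondrially encoded genes, 0 members were called, with 3 at an unadjusted p under 0.05.

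In NAM-treated obese hearts 16 of 40 assembly factors rose against untreated obese hearts, which is 40% beside 28.8% of all kept genes, and none fell, beside 0.466%. The unadjusted counts were 22 higher and 0 lower. Of these 16 genes 7 serve complex I, 1 complex II, 1 complex III, 5 complex IV and 2 complex V. The median log2 change was 0.31 beside 0.25 over all kept genes, and 4 estimates were negative, those of Uqcc3, Cox14, Cox17 and Coa6. After rescaling the median was 0.01 beside -0.01. Coa5 was then the 1 gene called higher, beside 0.2% of kept genes, and none was lower, beside 0.513%, with 4 higher and 3 lower at an unadjusted p under 0.05. Both comparisons use the same 4 obese samples, so a low obese value enters both with opposite sign.

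NAM-treated obese hearts differed from lean hearts in 1 of 40 assembly factors, Cox17, which was lower, beside 0.969% of kept genes called lower. None was higher, beside 0.865%, and at an unadjusted p under 0.05 the counts were 3 lower and 4 higher. The median log2 change was -0.04 beside 0.05 over all kept genes, with 22 negative estimates. After rescaling Cox17 was again the 1 gene called lower, beside 1.59% of kept genes, and none was higher, beside 0.77%. The rescaled median was -0.10 beside 0.00, and the unadjusted counts were 7 lower and 2 higher.

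**Figure D1:**
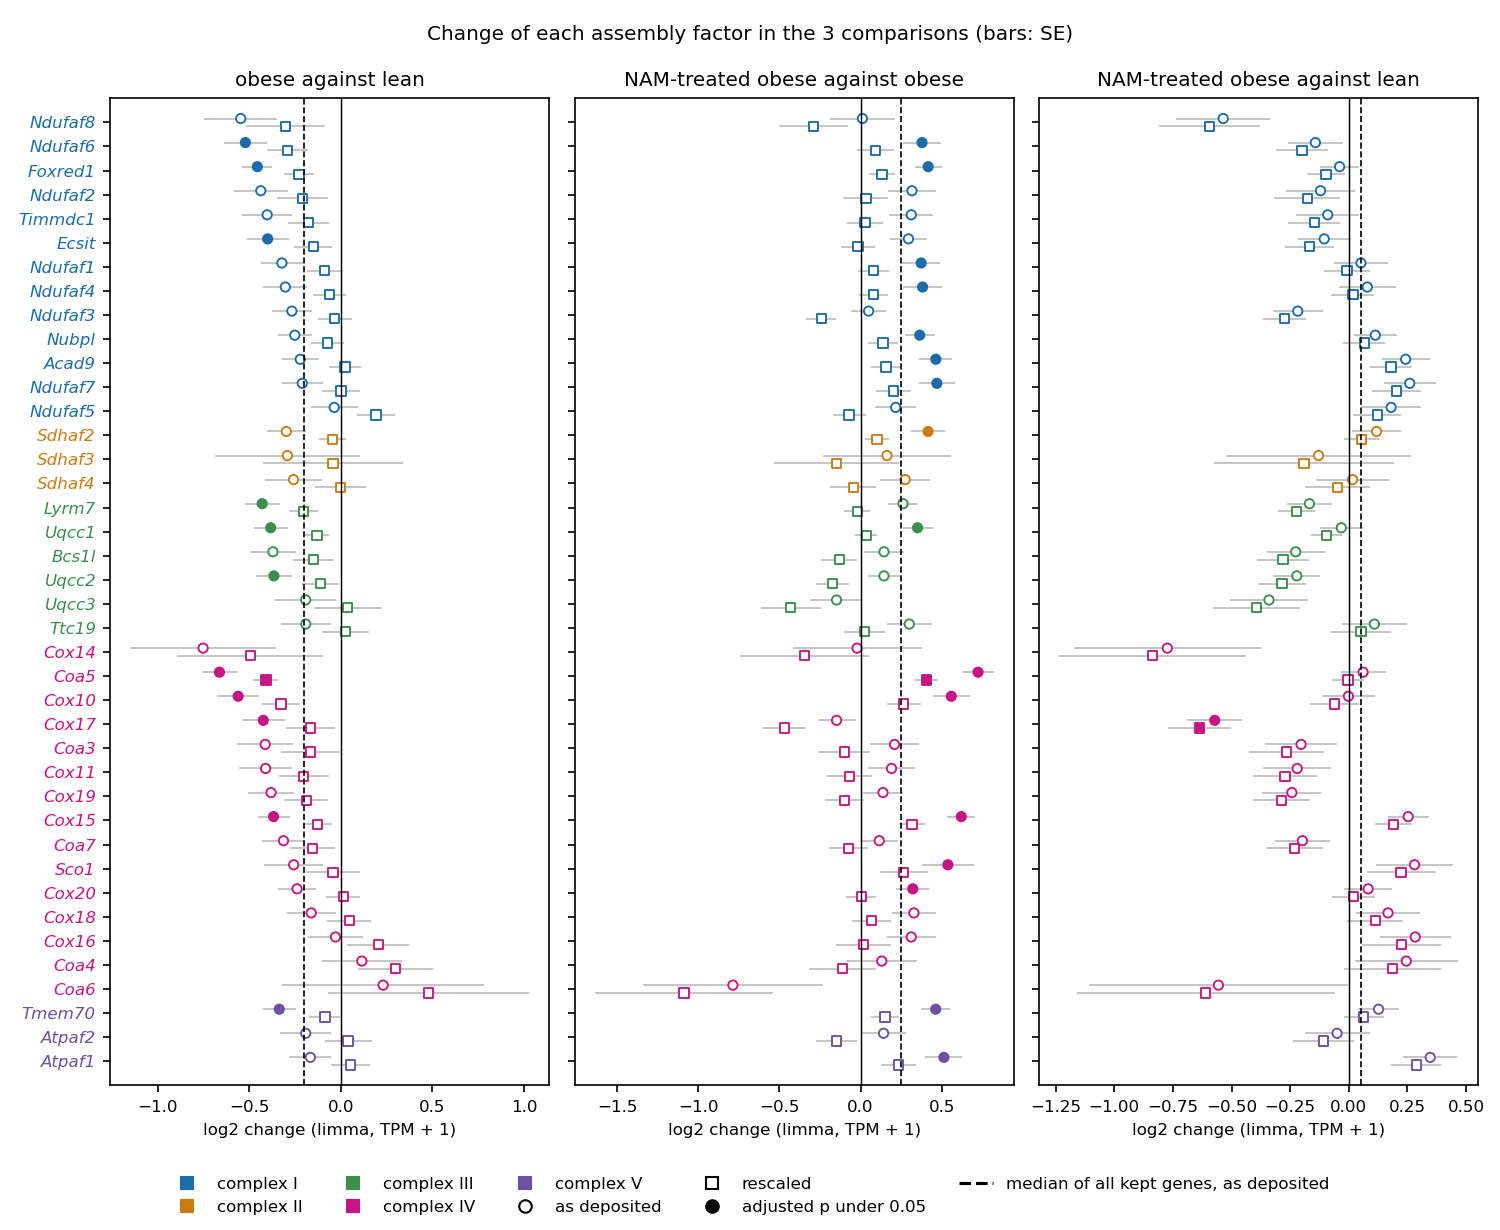
Log2 change of each of the 40 assembly factors in the 3 comparisons, by complex (colour), on the deposited scale (circles) and after rescaling (squares), with standard errors; filled symbols have an adjusted p under 0.05 and the dashed line is the median of all kept genes as deposited. As deposited, 11 circles are filled to the left in obese against lean and 16 to the right with NAM against obese, while 1 square is filled in each comparison.

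The 250 bases before the start site of 4 members are shown to let a reader see what kind of promoter these genes have. Cox15, Uqcc1 and Sdhaf2 were called higher with NAM on the deposited scale, and Cox17 was the member called lower than lean after NAM. The 4 were chosen after their values were seen. The sequences are from RefSeq in build GRCr8, 5′ to 3′ on the gene's strand, while the expression table uses Rnor_6.0. Capitals mark exact matches on either strand to GCGCANGCG, the core bound by nuclear respiratory factor 1 (NRF1), or to CCGGAAG, an ETS family core that includes sites of GABP, also called NRF2.

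Cox15, chr1:252571472-252571721, minus strand: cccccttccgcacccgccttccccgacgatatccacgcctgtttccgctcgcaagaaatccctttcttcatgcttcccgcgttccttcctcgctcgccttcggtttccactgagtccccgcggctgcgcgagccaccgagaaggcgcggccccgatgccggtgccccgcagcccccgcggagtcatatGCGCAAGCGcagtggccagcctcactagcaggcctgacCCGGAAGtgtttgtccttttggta
Uqcc1, chr3:164905779-164906028, minus strand: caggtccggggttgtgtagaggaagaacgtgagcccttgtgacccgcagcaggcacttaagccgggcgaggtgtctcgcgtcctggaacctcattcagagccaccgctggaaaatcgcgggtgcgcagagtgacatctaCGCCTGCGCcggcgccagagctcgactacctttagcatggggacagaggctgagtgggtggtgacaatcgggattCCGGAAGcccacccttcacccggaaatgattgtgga
Sdhaf2, chr1:216592669-216592918, minus strand: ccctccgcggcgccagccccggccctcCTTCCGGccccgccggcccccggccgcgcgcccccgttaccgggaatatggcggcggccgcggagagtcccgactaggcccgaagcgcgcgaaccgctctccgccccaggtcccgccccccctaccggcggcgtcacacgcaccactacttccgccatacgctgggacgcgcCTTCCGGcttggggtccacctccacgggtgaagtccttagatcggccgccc
Cox17, chr11:75912020-75912269, minus strand: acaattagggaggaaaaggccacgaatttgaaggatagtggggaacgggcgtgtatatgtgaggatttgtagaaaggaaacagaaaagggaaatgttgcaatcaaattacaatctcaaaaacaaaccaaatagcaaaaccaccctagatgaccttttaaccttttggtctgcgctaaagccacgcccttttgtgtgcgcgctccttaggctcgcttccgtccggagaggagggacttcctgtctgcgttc

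Cox15 holds an NRF1 match 62 to 54 bases before the start and an ETS match 24 to 18 bases before it. Uqcc1 has the same pair, with the NRF1 match at 111 to 103 bases and the ETS match at 36 to 30 bases before the start. Sdhaf2 has 2 ETS matches in the part shown and 1 more after the start. The part of Cox17 shown has no match. Of the 40 members 37 have a promoter in the RefSeq table, all but Coa5, Ndufaf6 and Tmem70. In windows of 300 bases, from 250 before to 50 after the start, 9 of 37 held the NRF1 core, or 24.32%, beside 14.06% of the promoters of kept genes and 5.8% of all promoters. The ETS core was found in 14, or 37.84%, beside 18.37% and 8.75%. AAGATGGC, a core bound by YY1, was found in 4, or 10.81%, beside 5.84% and 3.17%. TCAAGGTCA, the site of estrogen-related receptors, was found in 0 of the 37, beside 0.33% of kept gene promoters. At least 1 of the 4 patterns was present in 22 of 37, or 59.46%, beside 32.94% of kept gene promoters. The NRF1 pattern can match both strands at overlapping positions, which counts as 1 gene. The 4 sequences shown do not stand for the other members. Acad9, Cox20, Ndufaf1, Ndufaf4 and Sco1 were also called higher with NAM as deposited and had an NRF1 or ETS match. Foxred1, Nubpl, Ndufaf7, Cox10 and Atpaf1 were called higher too and had neither. Ecsit, Timmdc1, Ndufaf5 and Uqcc2 were not called higher and had such a match, while Lyrm7 and Cox14 were not called and had none. Whether matches go with the change was not tested. A match is a run of letters, and binding was not measured.

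For complex I, the 13 factors had a median log2 change of -0.32 in obese against lean hearts, with all 13 estimates negative. Of them 3 were called, 23.1% beside 16.5% of all kept genes. The Q module factors prepare the arm that carries electrons to ubiquinone. Of these 6 genes Ndufaf6, needed early for that arm, fell by 0.52 on the log2 scale in obese hearts (SE 0.12, adjusted p = 0.0118) and rose by 0.38 with NAM (adjusted p = 0.0312). Ndufaf7, an arginine methyltransferase, had 4.89 ± 0.652 TPM in lean, 4.09 ± 0.637 TPM in obese and 6.01 ± 0.122 TPM in NAM-treated hearts (SD, n = 4 here and below). It rose with NAM by 0.47 (SE 0.11, adjusted p = 0.00984). Ndufaf4 rose with NAM by 0.38 (adjusted p = 0.0320), and Ndufaf3, its partner in the Q module, was at 0.05 (adjusted p = 0.755). Ndufaf5 hydroxylates an arginine of the subunit Ndufs7, and Ndufaf8 stabilises Ndufaf5. Ndufaf5 had estimates of -0.04 in obese against lean and 0.22 with NAM, and Ndufaf8 had -0.55 (adjusted p = 0.0759) and 0.01, so neither was called.

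The membrane arm of complex I is built with the mitochondrial complex I intermediate assembly (MCIA) complex, to which Ndufaf1, Acad9 and Ecsit belong, and with Timmdc1. Ecsit, the complex I factor with the highest level, had 35.2, 24.0, 25.8 and 28.4 TPM in the lean samples, 23.0, 21.9, 20.6 and 18.8 TPM in the obese samples and 27.9, 25.2, 23.5 and 27.6 TPM in the NAM-treated samples. As deposited, every obese sample lay below every lean and every NAM-treated sample, and lean replicate 1 was the highest. Ecsit fell by 0.40 in obese hearts (SE 0.11, adjusted p = 0.0307) and had an estimate of 0.29 with NAM (adjusted p = 0.0665). Rescaled, obese replicate 1 at 27.4 TPM lay above lean replicate 4 at 27.2 TPM and above all NAM-treated samples. The rescaled Ecsit estimates were -0.15 (adjusted p = 0.5225) and -0.02 (adjusted p = 0.960). Acad9, a member of the acyl-CoA dehydrogenase family that serves here as an assembly protein, had 18.9 ± 1.28 TPM in lean, 16.2 ± 2.30 TPM in obese and 22.6 ± 1.63 TPM in NAM-treated hearts, and it rose with NAM by 0.46 (SE 0.10, adjusted p = 0.00743). Ndufaf1 rose with NAM by 0.37 (adjusted p = 0.0307). Timmdc1 was called in neither comparison, with -0.40 in obese against lean (adjusted p = 0.0569) and 0.31 with NAM (adjusted p = 0.0950).

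Foxred1, an oxidoreductase-like protein needed for complex I, had the smallest p of the complex I factors in both comparisons. Its TPM was 8.61, 9.41, 9.40 and 8.29 in the lean samples, 6.72, 6.64, 5.68 and 5.93 in the obese samples and 8.76, 8.41, 8.75 and 8.68 in the samples with NAM. As deposited, the obese samples did not overlap with either of the other groups, and the NAM-treated samples lay inside the lean range. After rescaling, obese replicate 1 at 7.99 TPM lay above lean replicates 1 and 4 and NAM replicates 1, 3 and 4. These NAM-treated samples were then below all lean samples. Foxred1 fell by 0.46 in obese hearts (SE 0.08, adjusted p = 0.00443) and rose by 0.42 with NAM (SE 0.08, adjusted p = 0.00495). Rescaled, the estimates were -0.23 (adjusted p = 0.184) and 0.13 (adjusted p = 0.475), so both calls ended. Nubpl, which delivers iron-sulfur clusters to complex I, rose with NAM by 0.36 (adjusted p = 0.0127). Ndufaf2, a factor of the late steps, was not called, with -0.44 in obese against lean (adjusted p = 0.0571) and 0.32 with NAM (adjusted p = 0.118).

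Some complex I calls rested on single libraries or settings. Ecsit in obese against lean was past the threshold only with lean replicates 1 and 4 and obese replicates 3 and 4 all present, with adjusted p up to 0.0823. The rise of Ndufaf1 was lost without obese replicate 1 or 3 or NAM replicate 1 or 4 (adjusted p up to 0.0927), that of Ndufaf6 without obese replicate 1, 3 or 4 or NAM replicate 4 (up to 0.0905), and that of Ndufaf4 without obese replicate 1, 3 or 4 or NAM replicate 1, 3 or 4 (up to 0.0945). These 3 rises were also lost with no filter on low values (adjusted p of 0.0501, 0.0507 and 0.0535 for Ndufaf1, Ndufaf6 and Ndufaf4) and with only the 8 samples compared (0.0639, 0.0557 and 0.0629), as was the fall of Ecsit (0.0518 and 0.0560). With only genes of a mean of at least 5 TPM, Ndufaf1, Ndufaf2 and Timmdc1 were called lower in obese hearts (adjusted p = 0.0493, 0.0370 and 0.0370) and Ecsit higher with NAM (0.0471), and the 8 samples compared alone gave the calls of Ndufaf2 and Timmdc1 (0.0344 and 0.0429) and the rise of Ecsit (0.0494) as well.

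The 3 complex II factors were not called in obese against lean hearts, with estimates from -0.30 to -0.26. Sdhaf2, which is needed to attach flavin to the subunit Sdha, had 39.2, 34.7, 36.6 and 37.5 TPM in lean, 28.3, 35.4, 25.8 and 30.8 TPM in obese and 45.3, 34.7, 41.0 and 40.6 TPM in NAM-treated samples. As deposited, obese replicate 2 lay above lean replicate 2 and NAM replicate 2, and the other obese samples were below all lean and NAM-treated samples. After rescaling, obese replicate 4 also lay above lean replicate 2 and NAM replicate 2. Sdhaf2 rose with NAM by 0.42 (SE 0.10, adjusted p = 0.0128), and rescaled the estimate was 0.10 (adjusted p = 0.559). Sdha itself, the flavin subunit, fell by 0.51 in obese hearts (adjusted p = 0.00348) and rose by 0.51 with NAM (adjusted p = 0.00306). Rescaled, Sdha was at -0.25 (adjusted p = 0.0737) and 0.19 (adjusted p = 0.175), so both calls ended. Sdhaf4, which binds the flavinated Sdha, had 76.3, 101, 76.6 and 66.2 TPM in lean, 53.0, 74.9, 72.6 and 65.4 TPM in obese and 75.2, 63.7, 88.7 and 96.0 TPM in NAM-treated samples. The 3 groups overlapped, and the estimates were -0.26 (adjusted p = 0.259) and 0.27 (adjusted p = 0.193). Sdhaf3, which helps to place iron-sulfur clusters in the subunit Sdhb, spread from 9.74 to 41.2 TPM among the lean samples alone, and its estimate of -0.29 had an SE of 0.40.

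The complex III factors had 3 of 6 genes called lower in obese hearts, 50% beside 16.5% of all kept genes, and a median of -0.37. The smallest p in obese against lean was that of Lyrm7, a chaperone that holds the Rieske iron-sulfur protein before it enters the complex. Lyrm7 had 8.96, 7.69, 7.87 and 9.65 TPM in lean, 5.68, 6.63, 5.60 and 6.39 TPM in obese and 7.56, 6.82, 7.76 and 7.75 TPM in NAM-treated samples. As deposited, all obese samples were below all others, and the lean samples reached higher than those with NAM. Lyrm7 fell by 0.43 in obese hearts (SE 0.09, adjusted p = 0.0104), and with NAM the estimate was 0.26 (adjusted p = 0.0534). Rescaled, the obese and NAM-treated samples overlapped, and the Lyrm7 estimates were -0.20 (adjusted p = 0.213) and -0.02 (adjusted p = 0.928). The Rieske protein gene Uqcrfs1 fell by 0.39 (adjusted p = 0.00591) and rose by 0.42 with NAM (adjusted p = 0.00379), and on rescaled values Uqcrfs1 was called in neither, at -0.13 (adjusted p = 0.384) and 0.10 (adjusted p = 0.519). Bcs1l, the ATPase that moves the Rieske protein through the inner membrane, had -0.37 (adjusted p = 0.0562) and 0.14 with NAM (adjusted p = 0.395). Ttc19, which helps to clear Rieske fragments, had -0.19 and 0.30 and was not called.

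Uqcc1 and Uqcc2 bind newly made cytochrome b, the mitochondrially encoded subunit of complex III. Uqcc1 had 41.1, 40.4, 43.9 and 41.0 TPM in lean, 30.5, 36.6, 28.9 and 31.1 TPM in obese and 43.4, 35.3, 40.4 and 44.0 TPM in NAM-treated samples. As deposited, the lean samples were above all obese samples, whereas NAM replicate 2 lay below obese replicate 2. Uqcc1 fell by 0.38 in obese hearts (SE 0.09, adjusted p = 0.0152) and was the 1 complex III factor that rose with NAM, by 0.35 (SE 0.09, adjusted p = 0.0151). Rescaled, obese replicate 2 at 39.4 TPM lay above lean replicate 1 at 37.6 TPM. Both Uqcc1 calls ended, at -0.13 (adjusted p = 0.360) and 0.04 (adjusted p = 0.841). Uqcc2 had 82.4, 59.1, 59.5 and 73.5 TPM in lean, 53.0, 52.5, 51.7 and 52.8 TPM in obese and 57.9, 61.4, 56.4 and 56.9 TPM in NAM-treated samples. As deposited, the obese samples lay within 2 TPM of each other and below all others. Uqcc2 fell by 0.37 in obese hearts (adjusted p = 0.0258), a call lost without lean replicate 1 or 4 or obese replicate 1, 3 or 4 (adjusted p up to 0.0675) or with only the 8 samples compared (0.0564), and had 0.14 with NAM (adjusted p = 0.291). Rescaled, the obese samples were at 56.6 to 63.0 TPM and overlapped with the lean samples, and NAM replicates 1, 3 and 4 lay below all of them. The rescaled Uqcc2 estimates were -0.11 (adjusted p = 0.646) and, with the sign turned, -0.17 with NAM (adjusted p = 0.436). Uqcc3, the remaining cytochrome b factor, had estimates of -0.19, -0.15 and -0.34 in the 3 comparisons as deposited and was not called. Mt-cyb, the cytochrome b gene that these factors serve, rose by 0.37 in obese hearts (adjusted p = 0.00300), and by 0.63 on the rescaled values (adjusted p = 0.00229). With NAM against obese Mt-cyb had -0.09 as deposited and was not called, and -0.41 on the rescaled values, where it was called lower. Against lean hearts, 5 of the 6 complex III factors had negative estimates after NAM, with a median of -0.20, and none was called.

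Among the 15 complex IV factors, 4 fell in obese hearts, 26.7% beside 16.5% of all kept genes. With NAM 5 rose, 33.3% beside 28.8%. Coa5, a small protein of the twin cysteine-motif type needed early in complex IV assembly, was the member with the smallest p in both comparisons and the 1 member called in them on both scales. Its TPM was 71.3, 63.0, 65.7 and 62.4 in the lean samples, 39.3, 47.0, 35.8 and 42.6 in the obese samples and 75.7, 60.5, 68.8 and 69.3 in the samples with NAM. The obese samples were apart from all others, and the lean and NAM-treated samples overlapped. Coa5 fell by 0.66 in obese hearts (SE 0.10, adjusted p = 0.00193) and rose by 0.72 with NAM (SE 0.10, adjusted p = 0.00292).

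On the rescaled values Coa5 was at 62.3 ± 2.37 TPM in lean, 46.8 ± 4.19 TPM in obese and 62.1 ± 1.69 TPM in NAM-treated hearts, again without overlap between the obese and other samples. The rescaled log2 change was -0.41 in obese against lean (SE 0.07, adjusted p = 0.0160) and 0.41 with NAM (SE 0.07, adjusted p = 0.0259). The first rescaled call ended without lean replicate 1, 2 or 3, with adjusted p up to 0.0515, and the second without obese replicate 3 or 4 or NAM replicate 1, 3 or 4, with adjusted p up to 0.0932. Fitted on only the 8 samples compared, the rescaled calls ended as well (adjusted p = 0.0760 and 0.0822), and with TPM without mitochondrially encoded genes the fall in obese hearts was at -0.37 (adjusted p = 0.0593).

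Cox10 and Cox15 make heme a, the cofactor that cytochrome oxidase subunit 1 needs, by way of heme o. Their values by sample were chosen for display after they were seen. Cox10, the heme o synthase, had 13.8, 11.5, 12.2 and 13.7 TPM in lean, 7.88, 10.3, 6.58 and 9.01 TPM in obese and 12.8, 12.6, 12.4 and 13.2 TPM in NAM-treated samples. Cox15, the heme a synthase, had 15.9, 13.8, 15.9 and 15.6 TPM in lean, 11.5, 13.5, 10.9 and 10.8 TPM in obese and 19.6, 18.7, 17.9 and 17.5 TPM in NAM-treated samples. For both genes all obese samples were the lowest as deposited, and for Cox15 the NAM-treated samples were also above all lean samples. Cox10 fell by 0.56 in obese hearts (SE 0.11, adjusted p = 0.00736) and rose by 0.56 with NAM (adjusted p = 0.00575). Cox15 fell by 0.37 (SE 0.09, adjusted p = 0.0146) and rose by 0.62 (SE 0.09, adjusted p = 0.00292), and between NAM-treated and lean hearts its estimate of 0.25 was not called (adjusted p = 0.174). Rescaled, Cox10 had -0.33 (adjusted p = 0.138) and 0.26 (adjusted p = 0.250), and Cox15 had -0.13 (adjusted p = 0.465) and 0.32 (adjusted p = 0.0955).

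Cox14 and Coa3 hold cytochrome oxidase subunit 1 while it is made. Cox14, the assembly factor with the highest level, had 326, 352, 271 and 156 TPM in lean, 281, 164, 157 and 82.0 TPM in obese and 183, 147, 97.4 and 215 TPM in NAM-treated samples. All 3 groups overlapped, and the log2 change of -0.75 in obese against lean had an SE of 0.40 (adjusted p = 0.213). Coa3 had -0.41 (adjusted p = 0.0760) and 0.21 with NAM. The gene they serve, Mt-co1, was at 60461 ± 1681 TPM in lean, 75461 ± 4574 TPM in obese and 75073 ± 3235 TPM in NAM-treated hearts. Mt-co1 rose by 0.32 in obese hearts (adjusted p = 0.00343) and differed by -0.01 between NAM-treated and untreated obese hearts on the deposited scale, whereas the rescaled difference was -0.33 (adjusted p = 0.0294).

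Cox17 hands copper to the proteins that load cytochrome oxidase. It had 155, 125, 125 and 127 TPM in lean, 98.5, 99.2, 108 and 89.2 TPM in obese and 77.6, 106, 98.6 and 76.4 TPM in NAM-treated samples. As deposited, all lean samples were above all others, and the obese and NAM-treated samples overlapped. Cox17 fell by 0.42 in obese hearts (SE 0.12, adjusted p = 0.0276) and was lower by 0.57 in NAM-treated than in lean hearts, a log2 change of -0.57 (SE 0.12, adjusted p = 0.0300). Between NAM-treated and untreated obese hearts the estimate was -0.15 (adjusted p = 0.356), which makes Cox17 the 1 member called lower in obese hearts whose estimate with NAM was not positive. On rescaled values it had -0.17 in obese against lean (adjusted p = 0.593), -0.47 with NAM against obese (adjusted p = 0.128) and -0.64 in NAM-treated against lean hearts (SE 0.14, adjusted p = 0.0325). The call in obese against lean was lost without lean replicate 1 or obese replicate 1 or 4 (adjusted p up to 0.0805). The call in NAM-treated against lean was lost without any 1 of the 4 lean samples or NAM replicate 1, 3 or 4, on both scales, with adjusted p up to 0.0913 as deposited and 0.0900 rescaled. It was also lost, as deposited and rescaled, with no filter on low values, with plain eBayes and with only the 8 samples compared (adjusted p up to 0.0616 and 0.0642).

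Of the other copper factors, Sco1, Cox11 and Cox19 had positive estimates with NAM as deposited, and the uncertain estimate of Coa6 was negative. Sco1, which passes copper to subunit 2, rose by 0.54 with NAM (SE 0.16, adjusted p = 0.0270), a call lost without obese replicate 1, 3 or 4 or NAM replicate 3 or 4 (adjusted p up to 0.0778). Cox11, which serves the copper site of subunit 1, had -0.41 in obese against lean (adjusted p = 0.0689) and 0.19 with NAM, and Cox19 had -0.38 (adjusted p = 0.0551) and 0.14. After rescaling, the estimates with NAM were 0.27 for Sco1, -0.07 for Cox11 and -0.10 for Cox19, and none was called. Coa6 had the largest SE of the 40 members, with values from 3.85 to 27.9 TPM in the NAM-treated samples and from 15.3 to 39.2 TPM in the obese samples, and its estimates of 0.23 and -0.79 each had an SE of 0.55.

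Cox18, Cox20 and Cox16 insert and join subunit 2. Cox20 rose by 0.32 with NAM (SE 0.10, adjusted p = 0.0331), lost without obese replicate 1, 3 or 4 or NAM replicate 3 or 4 (adjusted p up to 0.0984) or with no filter on low values (0.0535). Cox18 had -0.16 and 0.33 and Cox16 had -0.03 and 0.31, and neither was called. None of these 3 genes was called lower in obese hearts as deposited, beside 16.5% of all kept genes. Their median there was -0.16, near the -0.20 over all kept genes. The gene they serve, Mt-co2, was not called in obese against lean, with -0.12, and rose by 0.28 with NAM (adjusted p = 0.0102). On rescaled values both Mt-co2 estimates turned sign, to 0.14 (adjusted p = 0.496) and -0.05 (adjusted p = 0.847), and neither was called. Coa4 and Coa7 were at 2.70 and 1.62 TPM over the 12 samples and were not called.

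**Figure D2:**
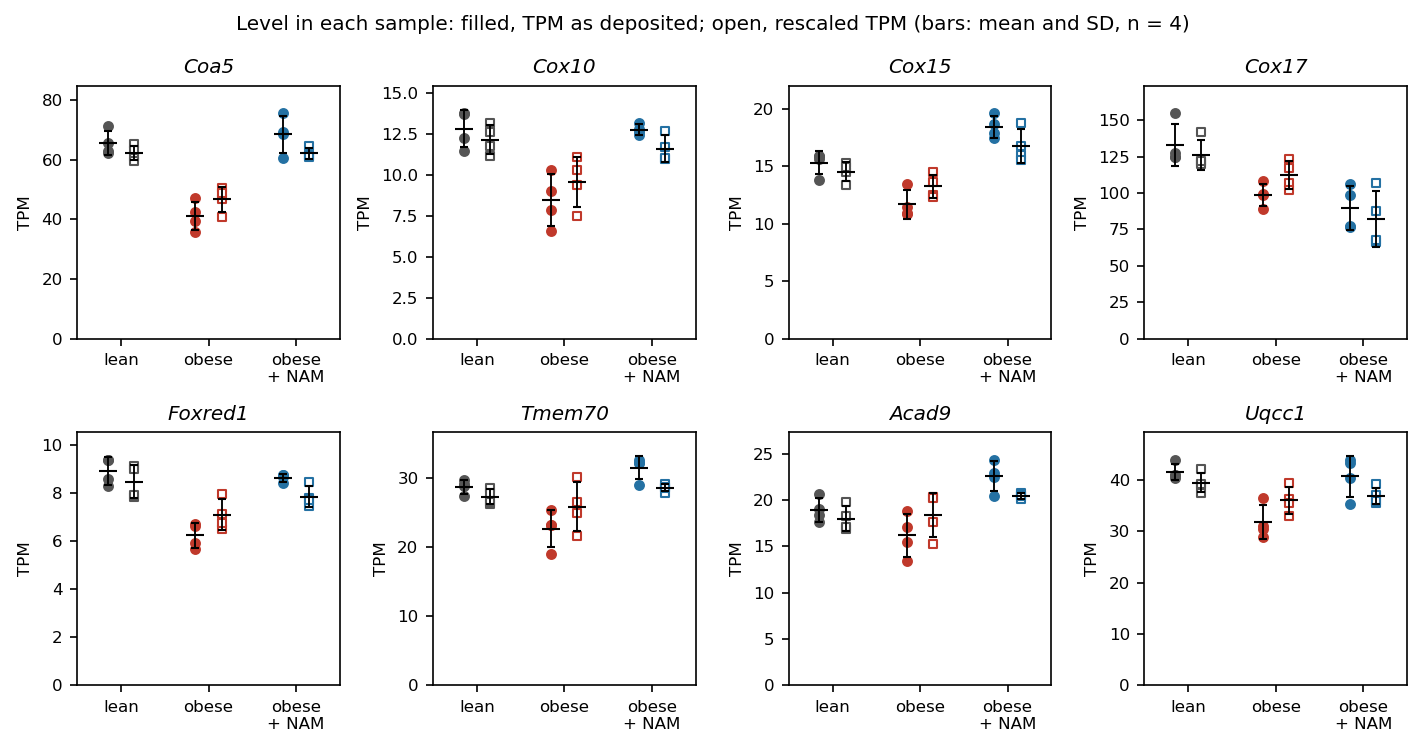
TPM in each sample of 8 assembly factors, as deposited (filled circles) and rescaled (open squares), with mean and SD (n = 4) for lean, obese and NAM-treated obese hearts; axes start at 0. Coa5 shows an obese group apart from the others on both scales, 35.8 to 47.0 TPM as deposited, while the Cox17 groups descend from 133 ± 14.7 TPM in lean to 98.8 ± 7.72 TPM in obese and 89.8 ± 15.1 TPM in NAM-treated hearts.

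Complex V had 3 factors, and Tmem70, which promotes formation of the c-ring, had the highest level and the smallest p. Its TPM was 28.8, 27.3, 29.7 and 29.1 in the lean samples, 25.3, 23.1, 18.9 and 23.2 in the obese samples and 32.6, 29.0, 32.1 and 32.1 in the samples with NAM. As deposited, the obese samples were below all others, and 3 of 4 NAM-treated samples were above all lean samples. Tmem70 fell by 0.34 in obese hearts (SE 0.09, adjusted p = 0.0230), lost without lean replicate 1, 3 or 4 or obese replicate 3 (adjusted p up to 0.0604), and rose by 0.46 with NAM (SE 0.09, adjusted p = 0.00446). Rescaled, obese replicate 1 had the highest value of all samples, 30.1 TPM. Both Tmem70 calls ended, at -0.09 (adjusted p = 0.671) and 0.15 (adjusted p = 0.422). Atpaf1, the chaperone of the beta subunit, had 6.31, 5.62, 6.36 and 6.59 TPM in lean, 4.66, 6.95, 4.64 and 5.73 TPM in obese and 7.70, 8.30, 7.87 and 8.88 TPM in NAM-treated samples, values picked for display after they were seen. As deposited, all NAM-treated samples were above all others, and obese replicate 2 was above every lean sample. Atpaf1 rose by 0.51 with NAM (SE 0.11, adjusted p = 0.00758) and was not called in obese against lean (-0.17, adjusted p = 0.324) or in NAM-treated against lean hearts (0.35, adjusted p = 0.152). Rescaled, NAM replicate 1 at 6.57 TPM lay below obese replicate 2 at 7.49 TPM. The rescaled Atpaf1 estimate with NAM against obese was 0.23 (adjusted p = 0.314). With TPM recomputed without mitochondrially encoded genes, Atpaf1 and Cox15 were called higher in NAM-treated than in lean hearts, by 0.48 (adjusted p = 0.0459) and 0.37 (adjusted p = 0.0375). Atpaf2, the chaperone of the alpha subunit, had -0.19 and 0.14 and was not called.

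The assembly factors were set beside the nuclear genes of the subunits they handle, 75 of which were tested. In obese against lean hearts 70 of the 75 subunit genes fell, 93.3% beside 27.5% of the assembly factors and 16.5% of all kept genes, with medians of -0.43 and -0.32 for subunits and assembly factors. With NAM against obese, 39 subunit genes rose, 52% beside 40% and 28.8%, with medians of 0.23 and 0.31. After rescaling 1 of the 75 subunit genes was called lower in obese against lean hearts (1.33%, median -0.17), and with NAM against obese 1 was called lower and 0 higher (median -0.10), with 23 lower and 5 higher at an unadjusted p under 0.05. In NAM-treated against lean hearts 13 subunit genes were called lower as deposited, 17.3% beside 0.969% of kept genes. After rescaling 27 were, 36% beside 1.59%, with a median of -0.22. The assembly factors had 1 called on each scale, or 2.5%, and a rescaled median of -0.10. The difference between the lists itself was not tested. The 13 mitochondrially encoded subunits had 8 called higher and 0 lower in obese hearts, 61.5% beside 0.352% of kept genes called higher. Their median was 0.29, or 0.55 after rescaling. With NAM against obese 2 were lower and 2 higher as deposited, 15.4% each beside 0.466% and 28.8%. After rescaling 6 were lower and 0 higher, 46.2% beside 0.513% of kept genes called lower, with a median of -0.33. A further list of 20 tested assembly proteins outside the 40, such as Dmac1, Higd1a and Oxa1l, had 10 called lower in obese hearts, 50% beside 16.5% of kept genes. Their median was -0.40 beside -0.20. With NAM 9 were called higher, 45% beside 28.8%, with a median of 0.25 beside 0.25 over all kept genes. After rescaling none of the 20 was called in either comparison, with 6 lower and 1 higher and then 3 lower and 0 higher at an unadjusted p under 0.05. Higd1a, a hypoxia-inducible protein that binds complex IV, was the 1 gene of that list called lower in NAM-treated than lean hearts, with -0.44 (adjusted p = 0.0346).

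**Figure D3:**
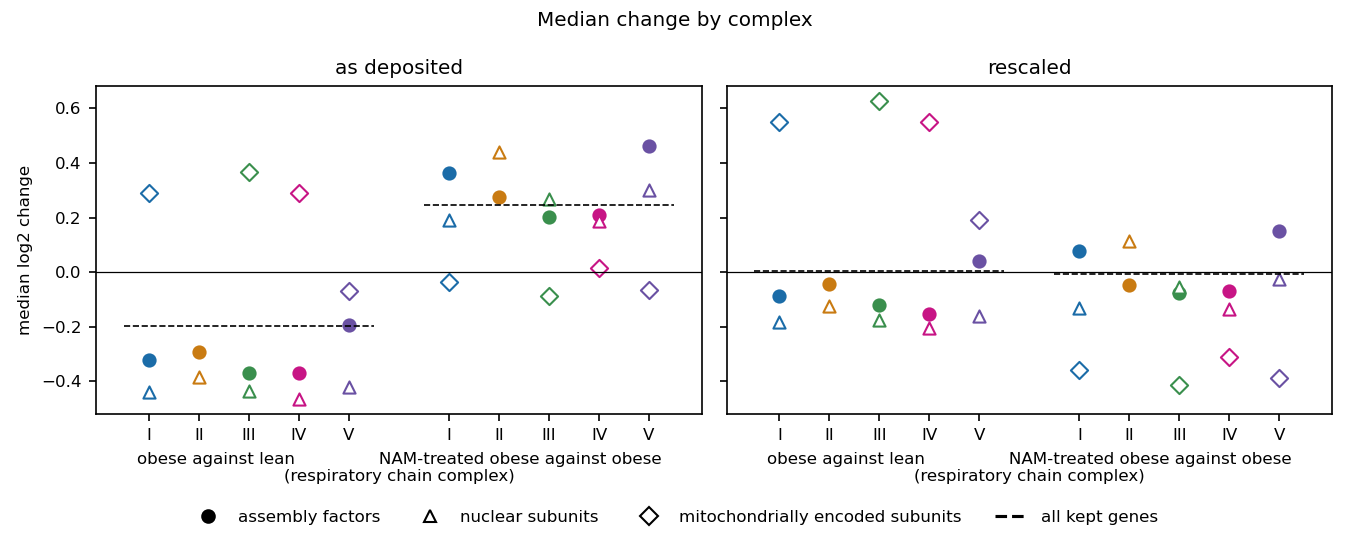
Median log2 change by complex for assembly factors (circles), nuclear subunits (triangles) and mitochondrially encoded subunits (diamonds), as deposited (left) and rescaled (right), with the median of all kept genes as a dashed line. In obese against lean the assembly factor medians lie between -0.37 and -0.19 as deposited, above those of the nuclear subunits in each complex.

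By complex, the nuclear subunit medians in obese against lean hearts were -0.44, -0.38, -0.43, -0.46 and -0.42 for complexes I to V, each below the assembly factor medians of -0.32, -0.29, -0.37, -0.37 and -0.19. These are changes of log2(TPM + 1), which understates those of low genes, and its part in the gap was not tested. In summed TPM, the complex I factors were at 157 in lean and 120 in obese hearts, beside 11783 and 8931 for the subunits. The complex IV factors were at 624, 439 and 469, beside 14568, 10427 and 11852 for the subunits. With NAM against obese the assembly factor medians were 0.36, 0.27, 0.20, 0.21 and 0.46, and those of the subunits 0.19, 0.44, 0.27, 0.19 and 0.30, so the assembly factors had the higher median in complexes I, IV and V. A ratio within a sample does not depend on rescaling. The summed TPM of the complex I factors was 1.33% ± 0.062 of that of the complex I nuclear subunits in lean hearts, 1.35% ± 0.10 in obese hearts and 1.49% ± 0.067 with NAM. The NAM-treated samples spanned 1.42% to 1.57% and the lean samples 1.26% to 1.41%, without overlap, while the obese samples reached from 1.21% to 1.43% and overlapped with both. The mean complex I factor sum with NAM was not above that in lean hearts, and the subunit sum was lower. For complex V the ratio was 0.370% ± 0.028 in the lean samples, 0.408% ± 0.036 in the obese samples and 0.441% ± 0.012 in the samples with NAM. The lean samples, at 0.329% to 0.389%, lay below the NAM-treated samples, at 0.427% to 0.454%, and the obese samples overlapped with both. For complexes II, III and IV the group means were 14.9%, 15.7% and 14.4%, then 4.43%, 4.57% and 4.33%, then 4.28%, 4.20% and 3.95% in lean, obese and NAM-treated hearts, with overlap between lean and NAM-treated samples in each. For complex III the obese samples, at 4.42% to 4.75%, all lay above the NAM-treated samples, at 4.22% to 4.40%, and both overlapped with the lean samples.

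**Figure D4:**
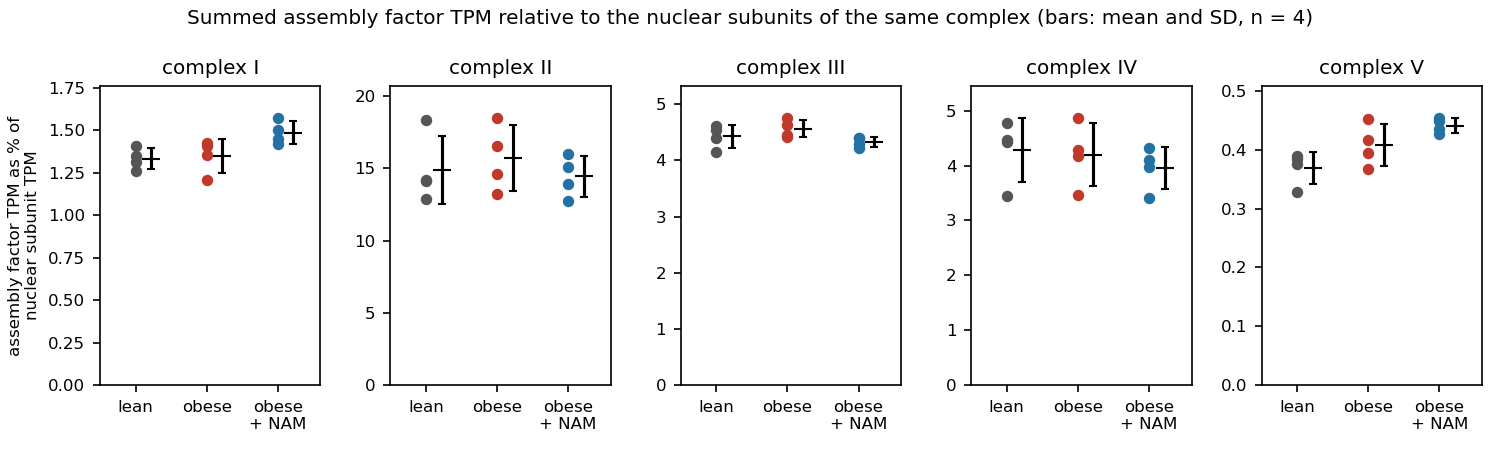
Summed TPM of the assembly factors as a percentage of the summed TPM of the nuclear subunits of the same complex, 1 point per sample, with mean and SD (n = 4); axes start at 0. For complexes I and V the NAM-treated points, at 1.42% to 1.57% and 0.427% to 0.454%, lie above all lean points, for complex III every obese point lies above every NAM-treated point, and for complexes II and IV all groups overlap.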

How the data were processed

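Cardiac muscle RNA was sequenced in bulk in 12 samples, 4 each of lean, obese and NAM-treated obese ZSF1 rats. Per the labels' protocols, RNA was extracted with TRIzol and RNeasy kits, and the NEBNext Ultra II libraries were directional. The authors deposited 1 table of TPM per gene against Rnor_6.0, per the submitters' processing notes, which also name limma. The aligner and the quantifier were not given in the sources used here. Depth cannot be recovered from TPM, so the precision is that of the spread between samples. The deposited TPM columns of the NAM-treated samples hold a text mark in place of a number for 498 genes, which were left out, and 17104 remained.

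A gene was kept when 4 or more samples had 1 TPM or more (10526 genes). Values of log2(TPM + 1) were fitted with limma 3.58.1 in R 4.3.3 with statmod 1.5.0, as 3 group means over 12 samples (9 residual degrees of freedom, moderated with trend and robust options). The 3 comparisons were 2-sided, with Benjamini-Hochberg adjustment over all kept genes and a threshold of 0.05, and every adjusted p in the text is limma's. A log2 change on this scale understates the change of low genes.

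The genes and lists were chosen with earlier results of these data known. Values by sample are given for members called after rescaling, for the member with the smallest p and the one with the highest level in each complex, and otherwise as marked. All 40 members matched a RefSeq symbol, and 37 had a promoter. Alternatives were pseudocounts of 0.1 and 5, no filter, a mean of at least 5 TPM, quantile normalization, TPM without mitochondrially encoded genes, plain eBayes, only the 8 samples compared, a replicate block, and samples left out singly.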

Additional observations from a re-analysis of the deposited data

Results flagged for a closer look

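Each assembly factor was searched in each group for a sample far from the other 3, by the gap to its nearest neighbour over the range of the group, above Dixon's critical value. Of 120 groups 11 had such a sample, and chance gives about 1 in 20. For complex I, Ndufaf5 was at 5.56 TPM in obese replicate 1 beside 7.41 to 7.75 TPM in the other obese samples. Ndufaf6, whose obese samples were otherwise at 6.38 to 6.69 TPM, had 9.18 TPM in obese replicate 2. Ndufaf8 had 27.2 TPM in lean replicate 1 beside 19.0 to 20.1 TPM, and Ndufaf2 had 11.6 TPM in NAM replicate 4 beside 6.96 to 7.39 TPM. For complex II, Sdhaf3 was at 9.74 TPM in lean replicate 3 beside 36.2 to 41.2 TPM.

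For complex IV, Cox15 had 13.8 TPM in lean replicate 2 beside 15.6 to 15.9 TPM, and Cox17 had 155 TPM in lean replicate 1 beside 125 to 127 TPM. Coa4 had 3.74 TPM in obese replicate 2 beside 2.19 to 2.44 TPM, and Coa7 had 2.20 TPM in lean replicate 4 beside 1.81 to 1.86 TPM. For complex V, Atpaf2 had 9.93 TPM in NAM replicate 1 beside 8.44 to 8.69 TPM, and Tmem70 had 29.0 TPM in NAM replicate 2 beside 32.1 to 32.6 TPM. The cause was not tested for any of these samples.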

How the results depend on the processing

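No member reversed its call under any alternative run. On the deposited scale, pseudocounts of 0.1 and 5 gave 11 calls in obese against lean and 16 in NAM-treated against obese hearts. No filter gave 10 and 12, without Ecsit in the first and Ndufaf1, Ndufaf4, Ndufaf6 and Cox20 in the second. A mean of at least 5 TPM gave 16 and 16 of 33 tested, adding Bcs1l, Ndufaf1, Ndufaf2, Sdhaf2 and Timmdc1 in the first, and Ecsit and Lyrm7 in the second. Nubpl and Ndufaf7, called in the second with the main filter, were below that mean and so were not tested. Plain eBayes gave 12 and 17, adding Nubpl and Lyrm7, and only the 8 samples compared gave 11 and 14. With median-of-ratios rescaling, as with quantile normalization, 1 was called in each of these comparisons. With TPM without mitochondrially encoded genes 0 were called in obese against lean (3 unadjusted), 2 with NAM against obese (Coa5 and Cox15) and 3 with NAM against lean (Cox17 lower, Cox15 and Atpaf1 higher). The 1 call in NAM-treated against lean became 0 with no filter, plain eBayes, only the 8 samples compared or quantile normalization, with 7, 6, 10 and 10 at an unadjusted p under 0.05 in limma. Of the rescaled counts of 1, that in NAM-treated against lean became 0 with no filter, plain eBayes, the replicate block and only the 8 samples compared (9, 10, 9 and 13 unadjusted). In NAM-treated against obese it became 0 with plain eBayes, the replicate block and only the 8 samples compared (7, 6 and 5 unadjusted), and in obese against lean with only the 8 samples compared (5 unadjusted). The cause of these shifts was not tested.

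Leaving out 1 sample gave 8 to 15 calls in obese against lean, 11 to 19 in NAM-treated against obese and 0 to 1 in NAM-treated against lean as deposited, and 0 to 1, 0 to 2 and 0 to 1 rescaled. The labels do not say whether the replicate numbers pair the samples. Deviations of same-numbered samples correlated at -0.05 to 0.07 (mean 0.012, beside -0.004 for different numbers), and 4 of 12 samples correlated best with their own number. A pairing without a shared effect on these values would not be seen this way. With the replicate block 11, 11 and 1 members were called as deposited, in the second without Ndufaf1, Ndufaf4, Ndufaf6, Cox20 and Sco1. Depth is unknown, and members near 1 to 3 TPM, such as Coa7, Coa4 and Nubpl, carry a counting error that the table does not show.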
